A study of Mus musculus with 12 samples.

Results

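Chromatin accessibility was examined at 10 genes that mark epithelial cells: the adherens junction cadherin Cdh1, the surface adhesion molecule Epcam, the tight junction proteins Ocln, Cldn3, Cldn4, Cldn6 and Cldn7, the splicing regulator Esrp1, and the simple-epithelium keratins Krt8 and Krt18. Each locus was the gene body in the GENCODE M21 annotation (GRCm38) with 20000 bp added on each side. The broad peaks of the 4 groups were merged into 273256 intervals, of which 109 overlapped the 10 loci. Of the 109, 6 lay in 2 loci at once (5 at Krt8 and Krt18, 1 at Cldn3 and Cldn4). Another gene's start site was covered by, or lay within 1000 bp of, 13.

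Omni-ATAC-seq, in which a transposase tags accessible DNA, was run on 12 libraries of 50000 cells each, 3 per group. The cells were passage 2 mouse embryonic fibroblasts (MEFs) of strain 129, taken from E12.5 chimeric embryos made with an ES cell line of E14Tg2a origin. All 4 groups carried Cas9 in the Rosa26 locus under the EF1α promoter and a doxycycline-inducible MKOS cassette encoding MYC, KLF4, OCT4 and SOX2 with an mOrange reporter. MEF control cells received a non-targeting sgRNA by lentivirus and MEF KO cells an sgRNA against Zfp266, as bulk populations and not clones, and both were harvested 96 h after transduction. Reprogramming control and reprogramming KO cells received the same sgRNAs and the same 96 h, the last 72 h of them with doxycycline at 300 ng/ml and vitamin C at 10 µg/ml in ES cell medium. They were cultured together with wild-type 129 MEFs and sorted as mOrange+ cells. The medium, the agents, the co-culture and the sort differed between the MEF and reprogramming groups together with induction, so they cannot be told apart from it. The genotype labels read wild type and Zfp266 KO. The peak files hold 1 list per group, called on its 3 libraries merged, so peak values have no replicate error and no test. Accessibility at these loci does not check the loss of Zfp266 itself.

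Fibroblasts are mesenchymal cells. Their conversion into induced pluripotent stem cells passes through a mesenchymal to epithelial transition, in which cells form E-cadherin junctions, tight junctions and keratin 8/18 filaments. In mesenchymal cells the SNAI and ZEB repressors bind E-boxes in epithelial promoters, and KLF4 is known to act on Cdh1 during reprogramming. ESRP1 sets the epithelial splice forms of many transcripts, and ZFP266 is a KRAB zinc finger protein, a family known for repression of chromatin at repeats.

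The intervals present only after induction carry the gains described here. For the 4 loci with the strongest of them, the central 300 bases of the interval are shown, read from the plus strand of GRCm38.p6. They lay at chr17:23693073-23693372 (downstream of Cldn6), chr13:100507874-100508173 (an intron of Ocln), chr4:11366065-11366364 (within Esrp1, beside an internal transcript start) and chr8:106621493-106621792 (an intron of Cdh1). Capitals mark matches, on either strand, to 5 fixed strings: CAGGTG (the E-box), CCNCNCCC (KLF), ATTTGCAT (OCT), ATTGTT (SOX) and TGANTCA (AP-1). None of the 5 strings contains another.
Cldn6 gained interval: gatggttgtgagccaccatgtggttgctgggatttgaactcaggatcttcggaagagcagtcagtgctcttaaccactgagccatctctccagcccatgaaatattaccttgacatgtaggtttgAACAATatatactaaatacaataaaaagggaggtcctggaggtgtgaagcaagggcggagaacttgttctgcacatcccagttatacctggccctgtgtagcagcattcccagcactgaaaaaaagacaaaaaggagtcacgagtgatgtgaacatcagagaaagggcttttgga
Ocln gained interval: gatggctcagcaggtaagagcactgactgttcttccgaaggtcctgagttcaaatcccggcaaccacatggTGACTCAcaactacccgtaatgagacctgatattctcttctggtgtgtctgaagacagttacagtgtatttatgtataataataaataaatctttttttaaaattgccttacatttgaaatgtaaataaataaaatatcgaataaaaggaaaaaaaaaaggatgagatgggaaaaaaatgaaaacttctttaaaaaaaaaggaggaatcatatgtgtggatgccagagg
Esrp1 gained interval: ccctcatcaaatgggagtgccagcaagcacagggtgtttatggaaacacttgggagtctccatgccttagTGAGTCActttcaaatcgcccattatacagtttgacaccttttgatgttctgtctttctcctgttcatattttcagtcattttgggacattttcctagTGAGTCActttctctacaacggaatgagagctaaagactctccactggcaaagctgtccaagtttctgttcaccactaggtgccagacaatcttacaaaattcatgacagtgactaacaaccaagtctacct
Cdh1 gained interval: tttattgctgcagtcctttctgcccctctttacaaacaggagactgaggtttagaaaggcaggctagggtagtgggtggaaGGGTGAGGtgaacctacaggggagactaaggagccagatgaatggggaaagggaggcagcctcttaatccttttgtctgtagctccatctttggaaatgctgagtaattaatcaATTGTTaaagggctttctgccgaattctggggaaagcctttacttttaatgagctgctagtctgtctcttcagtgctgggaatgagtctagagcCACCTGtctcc
The Esrp1 window held 2 AP-1 matches and none of the other strings. The Cdh1 window held 1 match each for the E-box, KLF and SOX. Soft-masked bases, which the assembly marks as repeats, made up 100% of the Ocln window, 46.0% of the Cldn6 window, 8.0% of the Cdh1 window and 7.0% of the Esrp1 window.

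The strongest interval that was present in MEFs and absent after induction was also in an intron of Cdh1, at chr8:106647344-106647643, and is shown for contrast with the gained Cdh1 interval. Its window held no match to any of the 5 strings.
Cdh1 lost interval: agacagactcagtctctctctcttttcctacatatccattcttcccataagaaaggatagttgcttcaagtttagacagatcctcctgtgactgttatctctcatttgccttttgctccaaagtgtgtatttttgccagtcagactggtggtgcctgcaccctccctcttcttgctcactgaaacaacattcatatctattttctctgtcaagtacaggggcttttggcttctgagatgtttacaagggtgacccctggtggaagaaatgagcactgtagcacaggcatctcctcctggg

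At the start sites, 9 of the 10 genes had a peak within 1000 bp of any annotated transcript start in MEF control cells, where 73.8% of 21938 protein-coding genes had one. A start site peak before induction was not particular to these 10 genes: all 30 other epithelial genes and all 8 mesenchymal genes given below also had one in MEF control. Among the 10 only Cldn6 lacked one. After induction all 10 had one in both reprogramming groups. The quantity given is the authors' peak fold, the linear enrichment of a peak over its background, of the strongest peak near any annotated start site.

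Cdh1, which encodes E-cadherin, had a start site fold of 4.65 in the MEF control list and 4.61 in the MEF KO list, then 2.78 in reprogramming control and 2.70 in reprogramming KO. Epcam had 3.94, 4.33, 3.33 and 3.15 in the same order, and Ocln, a membrane protein of tight junction strands, 3.84, 3.88, 3.22 and 3.09. All 3 were highest in the MEF groups.

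Among the claudins, which form the paracellular barrier, Cldn3 stayed near one level, with folds of 2.70, 2.65, 2.85 and 2.89. Cldn4 had 3.02, 2.74, 2.37 and 2.29, and Cldn7 3.17, 3.40, 1.95 and 1.90. Cldn6, a claudin of early embryonic epithelium, had no start site peak in either MEF group and folds of 1.79 and 1.81 in reprogramming control and KO, at an interval whose midpoint lay 1642 bp into the gene. That interval began more than 1000 bp past the main start, so it counted through an internal transcript start. The main start of Cldn6 had no peak within 1000 bp in any group. Counted by gene over any annotated start, Cldn6 was the 1 gained of the 10, against 3.93% of all protein-coding genes. Esrp1, given below, gained a peak at an internal start but had a MEF peak at its main start, so it was not counted. The Cldn6 gain rests on the window: with 500 bp or with 2000 bp on each side the count was 0.

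The 2 keratins, whose proteins pair into filaments, are encoded side by side. Krt18 had start site folds of 2.01, 2.19, 3.04 and 2.68, higher after induction. Krt8 had 3.08, 2.94, 2.55 and 2.45. Its ratio of reprogramming control over MEF control, 0.826, was within 1.5 times and close to the median of all genes, 0.845. The merged interval over the Krt8 start site, taken whole, had 4.04, 4.14, 2.55 and 2.45, a ratio of 0.630, so the Krt8 value depended on whether peaks beyond 1000 bp were included.

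At Esrp1 the strongest start site peak was not the same peak before and after induction. Around the main start the interval at chr4:11384532-11389443 had folds of 3.71, 3.59, 2.55 and 2.53. The interval beside the internal transcript start, 20568 bp into the gene, had no MEF peak and folds of 5.88 and 6.12 in reprogramming control and KO, the highest of the 10 genes after induction.

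**Figure D1:**
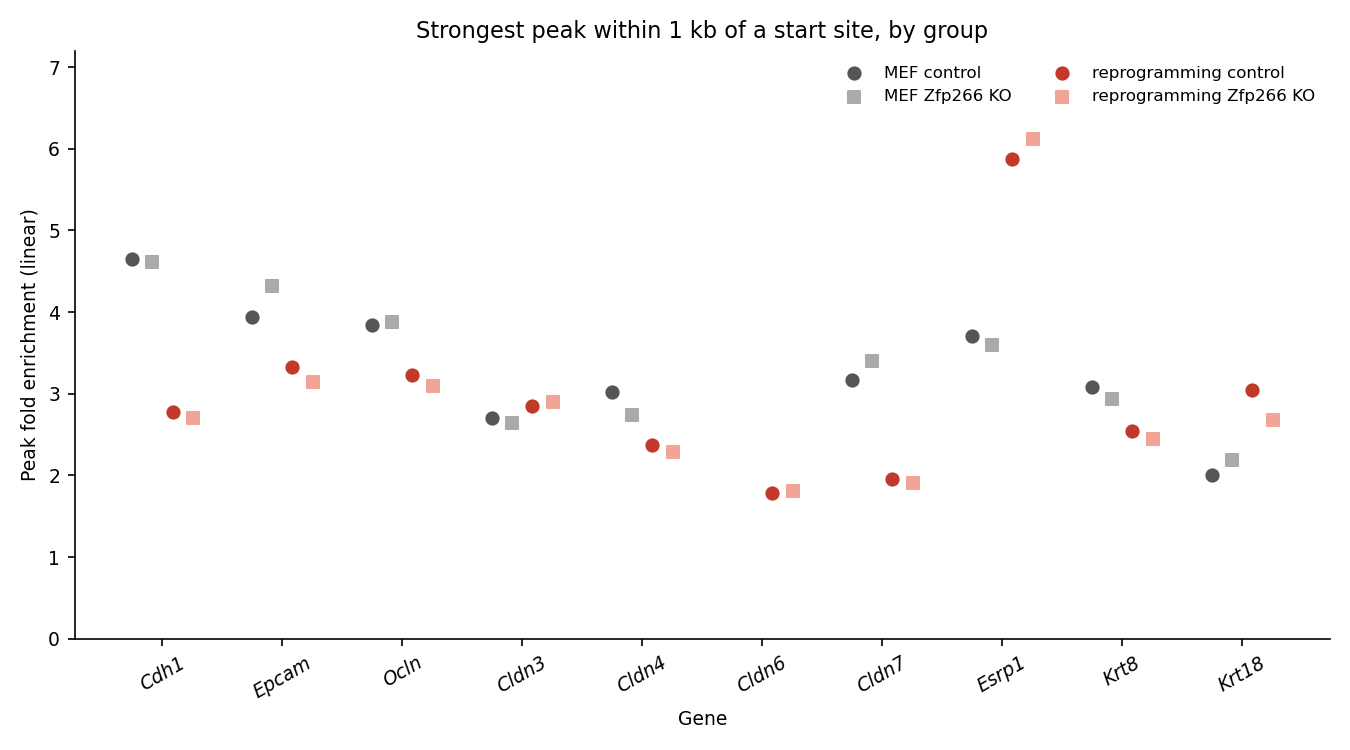
Peak fold (linear) of the strongest peak within 1000 bp of any annotated start site of the 10 genes, 1 point per group, with no replicate error because each group has 1 merged peak list. Cldn6 has no MEF point, Esrp1 rises to 5.88 through its internal start, and the control and KO points of each context lie close together.

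Of the 9 start sites with a peak in both controls, 2 were at least 1.5 times higher in reprogramming control (Esrp1, ratio 1.58, and Krt18, ratio 1.51; 1.89% of 15465 genes were that much higher). Another 2 were at least 1.5 times lower (Cdh1, 0.598, and Cldn7, 0.617; 17.4% of genes). The median ratio was 0.840 for the 9 and 0.845 for all genes, so folds were lower across the genome after induction, with a log2 median ratio of -0.24. Divided by that median, Esrp1 (1.88) and Krt18 (1.79) stayed past 1.5, and Cdh1 (0.708) and Cldn7 (0.731) no longer did; after this division 4.60% of the 15465 genes were higher and 6.43% lower. By the same division 2 of 8 fibroblast markers also passed 1.5, Pdgfra (1.59) and Dcn (1.59). These calls are for control cells. In KO cells Esrp1 went from 3.59 to 6.12 and Krt18 from 2.19 to 2.68, the latter by less than 1.5 times. The Esrp1 ratio sets its internal start after induction against its main start in MEFs, because the internal start had no MEF peak. At its main start Esrp1 was lower, at a ratio of 0.688, before this division.

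Over the whole loci, a peak in all 4 groups was the most frequent pattern, at 45 of the 109 intervals (41.3%; 24.7% of all intervals). In both reprogramming groups and neither MEF group there were 22 (20.2%; 27.4% of all), and in both MEF groups and neither reprogramming group 20 (18.3%; 27.5% of all). A further 11 were present in KO only (10.1%; 6.36% of all), 5 in control only (4.59%; 9.35%), and 6 had another pattern (5.50%; 4.58%). The balance of 22 gained to 20 lost depended on the settings: with peaks of fold 3 or more it was 9 to 22, and with 50000 bp on each side 50 to 29.

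**Figure D2:**
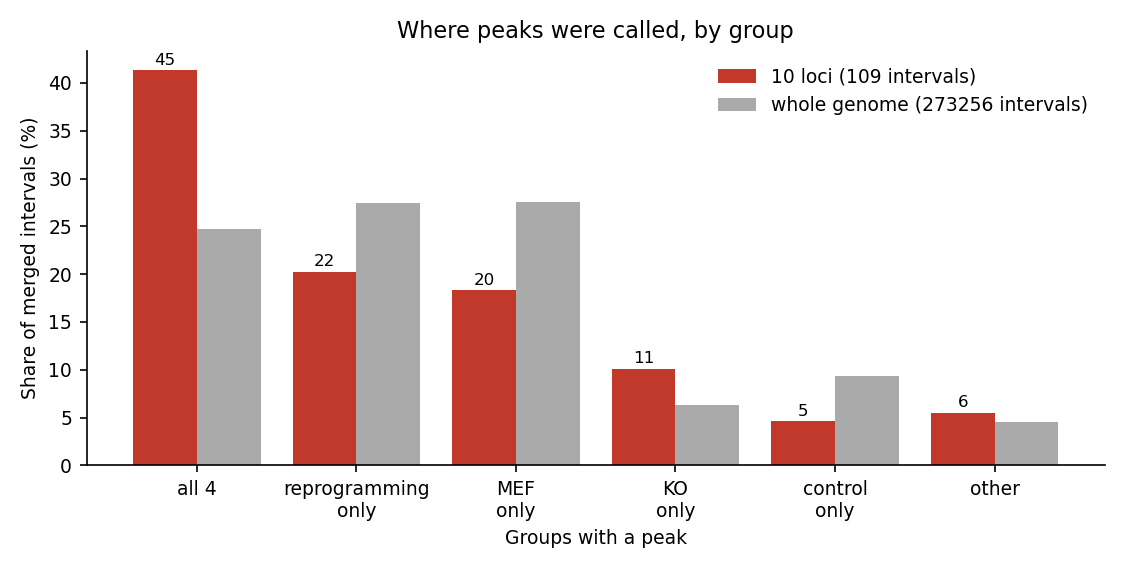
Share of merged intervals (%) by the groups that have a peak there, for the 109 intervals at the 10 loci and for all 273256. The number above each red bar is the count at the loci; "other" is any pattern not named, and the loci stand above the genome in the all 4, KO only and other classes and below it in the remaining 3.

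At least 1 interval present only after induction was found at 8 of the 10 loci (82.9% of protein-coding genes had one), and at least 1 present only in MEFs at 7 of 10 (66.5%). The 22 gained intervals had folds from 1.52 to 6.83 in reprogramming control, with a median of 2.34, against a median of 3.04 for all intervals of this kind. The 20 lost intervals had folds from 1.86 to 6.04 in MEF control, with a median of 3.10, against 2.94.

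By count Cdh1 had the most exchange of the 10, with 4 intervals gained, 8 lost and 8 in all 4 groups. It also had the longest window, 106896 bp, and this ranking takes no account of length. Its strongest lost interval, 44142 bp into the gene, had a fold of 6.04 in MEF control and 6.50 in MEF KO. A second lost interval, 52286 bp in, had 5.07 and 4.82. The strongest gained interval, at chr8:106621289-106621997 in an intron, had 3.71 in reprogramming control and 3.69 in reprogramming KO. Gained and lost intervals alternated within the gene: 3 lost intervals lay between 8495 and 23018 bp from the start site, and 3 gained ones between 5393 and 21666 bp.

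Ocln gained 4 intervals and lost 3. The gained interval at chr13:100507010-100509037 had folds of 6.21 in reprogramming control and 4.44 in reprogramming KO, a KO over control ratio of 0.716. An upstream gained interval at 15962 bp from the start site had 3.76 and 4.20. The strongest lost interval, in an intron 26483 bp from the start site, had 4.60 and 4.54 in the MEF groups. An interval at the far end of the locus, within 1000 bp of a start site of the neighbouring gene Gtf2h2, was present throughout. It had 7.41 in MEF control and 2.63 in reprogramming control.

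Epcam had few intervals, 8 in all. Its gained interval lay 3575 bp from the start site in an intron, with folds of 3.10 and 3.37 in reprogramming control and KO. Its lost interval lay 7234 bp upstream, with 4.05 and 3.89 in MEF control and KO.

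Cldn6 and Esrp1 gained 4 intervals each and lost none. The interval 13974 bp from the Cldn6 start site had the highest fold of the gained ones, 6.83 in reprogramming control and 6.67 in reprogramming KO. Its neighbour, 15274 bp from the start, was present in all 4 groups and had 5.58 in MEF control and 2.46 in reprogramming control. At Esrp1 an upstream gained interval, 11458 bp from the start site, had 4.12 and 3.93. Among intervals in both controls the ratio farthest from 1 at Esrp1 was 1.48 (4.02 to 5.95). That interval lay past the end of Esrp1, within 1000 bp of a start site of Dpy19l4.

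Of the other claudins, Cldn3 gained 0 and lost 3, the strongest with 5.29 and 4.94 in MEF control and KO. Cldn4 gained 2 and lost 4, its strongest loss with 3.16 and 3.08. Among intervals in both controls the ratio farthest from 1 at Cldn3 was 1.49 (2.92 to 4.35, at 15033 bp from the start site). At Cldn4 it was 0.629 (6.91 to 4.35, at an interval within 1000 bp of a start site of Mettl27). Cldn7 gained and lost 0 intervals, its start site fold being lower as given above, and 6 of its 7 intervals were present in all 4 groups.

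At the keratins Krt8 gained 3 and lost 1 and Krt18 gained 1 and lost 1, the Krt18 pair being shared with Krt8. The strongest gain lay at the gene's end, with its midpoint 8177 bp from the Krt8 start site, with 2.92 and 3.04 in reprogramming control and KO. Between the genes, 20794 bp upstream of the Krt8 start site and 2904 bp upstream of that of Krt18, an interval went from 3.83 in MEF control to 2.02 in reprogramming control, a ratio of 0.526. The shared lost interval had 3.72 and 4.13 in MEF control and KO. An interval 17499 bp from the Krt18 start site had 5.45 in MEF control, 1.84 in reprogramming control and no peak in reprogramming KO.

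**Figure D3:**
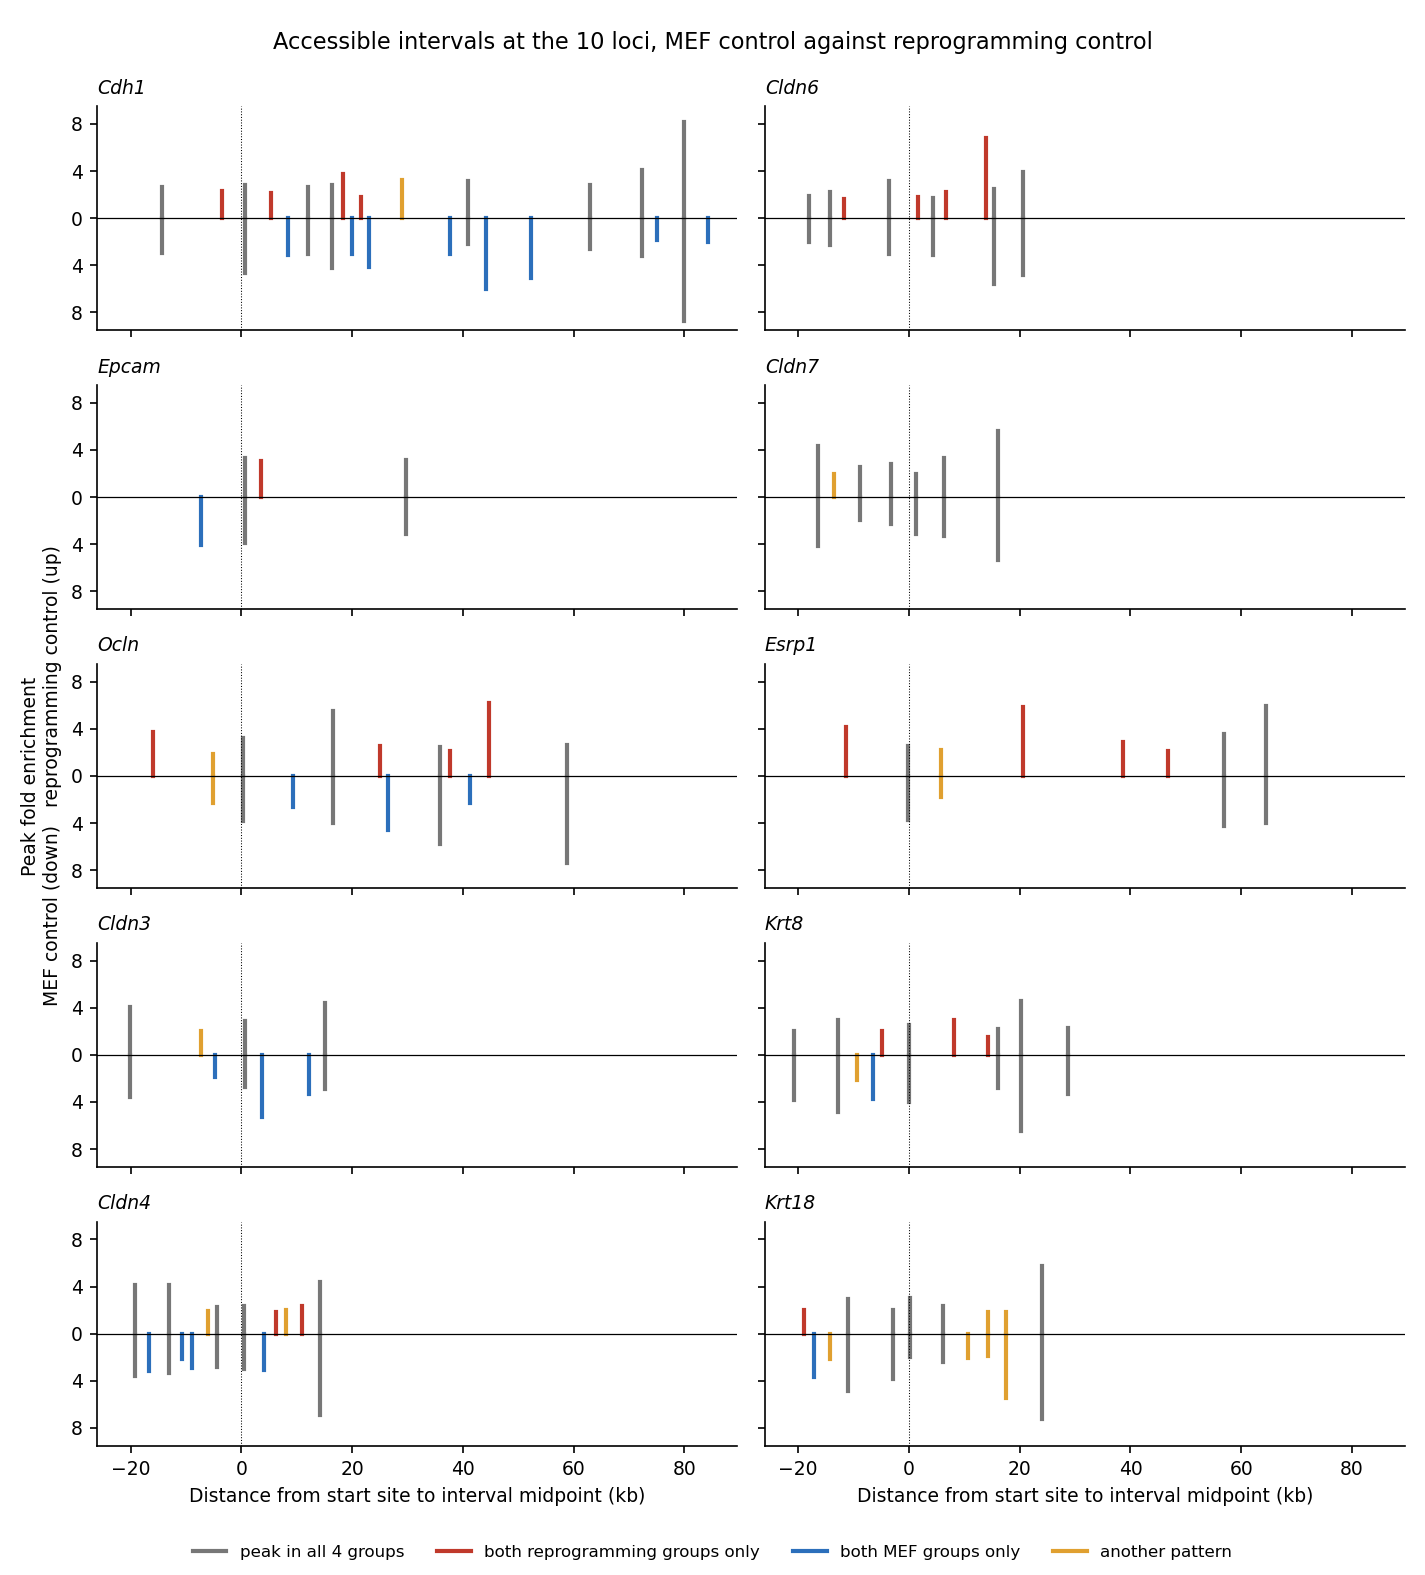
Merged intervals at each of the 10 loci by distance (kb) from the gene's start site to the interval midpoint, positive in the direction of transcription. Bars show peak fold (linear), upwards in reprogramming control and downwards in MEF control, coloured by the groups with a peak; Cdh1 and Ocln mix gained and lost intervals, Cldn6 and Esrp1 show gains without losses, and Cldn3 shows losses without gains.

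Of the 49 intervals with a peak in both controls, 1 was at least 1.5 times higher in reprogramming control (Krt18 start site; 9.66% of all intervals) and 11 were that much lower (24.9%). The median ratio was 0.882 at the loci and 0.858 over all intervals. Divided by the latter the split was 5 higher (15.6% of all intervals) and 6 lower (14.3%). The 5 were the Krt18 start site and 1 interval each at Cdh1, Ocln, Cldn3 and Esrp1. In KO cells, of 48 intervals with a peak in reprogramming KO and MEF KO, 4 were at least 1.5 times higher after induction (10.0% of all intervals), 3 at Cdh1 and 1 at Cldn7, and 11 were lower (23.8%). The median ratio in KO cells was 0.959 at the loci and 0.866 over all intervals. Whether the induction ratios of KO and control cells differ was not tested, because the lists have no replicates.

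The second comparison asked what loss of Zfp266 changes at these loci. In MEFs 0 of 67 intervals with a peak in both groups changed by 1.5 times in peak fold in either direction (0.186% of all intervals), with KO over control ratios from 0.770 to 1.16. After induction 0 of 71 did (0.344%), with ratios from 0.716 to 1.37. At the start sites the ratio ran from 0.907 to 1.10 in MEFs and from 0.882 to 1.04 after induction.

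Peaks called in one group and not the other were weak. After induction 10 of the 109 intervals (9.17%) had a peak in KO and not in control (4.96% of all intervals), with KO folds from 1.75 to 2.37. Of these, 4 were at Ocln, 3 at Epcam and 1 each at Cdh1, Cldn3 and Esrp1. The reverse was seen at 5 (4.59%; 7.27% of all), with control folds from 1.84 to 1.98. In MEFs 4 intervals had a peak in KO only (3.67%; 3.65% of all) and 4 in control only (3.67%; 4.79% of all). Whether these differences in presence exceed the spread between libraries was not tested, because the lists carry no replicates.

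The 11 intervals present only in KO, in either context, were short, with a median of 279 bp (292 bp for all such intervals). Soft-masked bases made up a median of 64.0% of their central 300 bases, with a range of 0 to 100%, and 15.7% over all KO-only intervals. For the 22 gained intervals at these loci the median was 11.7%. Repeat families were not assigned here.

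Counts per library were given by the authors only for intervals past their adjusted threshold. Within the 10 loci 1 such interval was listed for KO against control after induction (0.588% of all intervals were listed) and 0 in MEFs (0.176%). It lay at Ocln, at chr13:100502677-100503083, 49838 bp from the start site. Its midpoint was intronic, and it spanned an exon of 42 bp at chr13:100502936-100502977. The nearest start site of any gene was that of Gtf2h2, 10300 bp away. Soft-masked bases made up 65.6% of the interval, and the central 300 bases, at chr13:100502730-100503029 on the plus strand, held no match to the 5 strings.
Ocln listed interval: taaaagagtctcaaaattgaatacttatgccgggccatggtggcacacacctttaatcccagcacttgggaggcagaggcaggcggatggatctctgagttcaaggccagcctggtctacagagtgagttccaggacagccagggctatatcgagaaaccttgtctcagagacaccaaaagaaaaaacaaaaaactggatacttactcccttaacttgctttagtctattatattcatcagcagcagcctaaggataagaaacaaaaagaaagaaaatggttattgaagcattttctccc

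Its normalised read counts were 20.1, 14.5 and 11.7 in the 3 reprogramming control libraries and 41.2, 50.4 and 38.1 in the 3 reprogramming KO libraries. The groups did not overlap, at an interval that was selected for a difference between these same libraries. The means were 15.5 ± 4.26 and 43.2 ± 6.42 (SD, n = 3 each), and the mean over the 6 MEF libraries was 1.45. The log2 difference, KO over control, was 1.47 with an SE of 0.26 and an adjusted p = 8.42e-06 (edgeR quasi-likelihood test, two-sided, Benjamini-Hochberg over 273256 intervals). The raw counts behind it were low, from 9 to 45 reads per library. The interval was listed because it passed the authors' test on these same libraries, so this is no independent evidence. An exact permutation test of the 3 against 3 normalised counts gave p = 0.1 (two-sided), the smallest this design allows. The call was lost with TMM scaling over the listed intervals (0.50, adjusted p = 1.00, edgeR) and without scaling (1.35, adjusted p = 0.255, edgeR). The labels do not say whether replicates are separate cultures, so the p-values measure the spread between these libraries, which may be technical. Its only peak was in reprogramming KO, with a fold of 1.82.

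**Figure D4:**
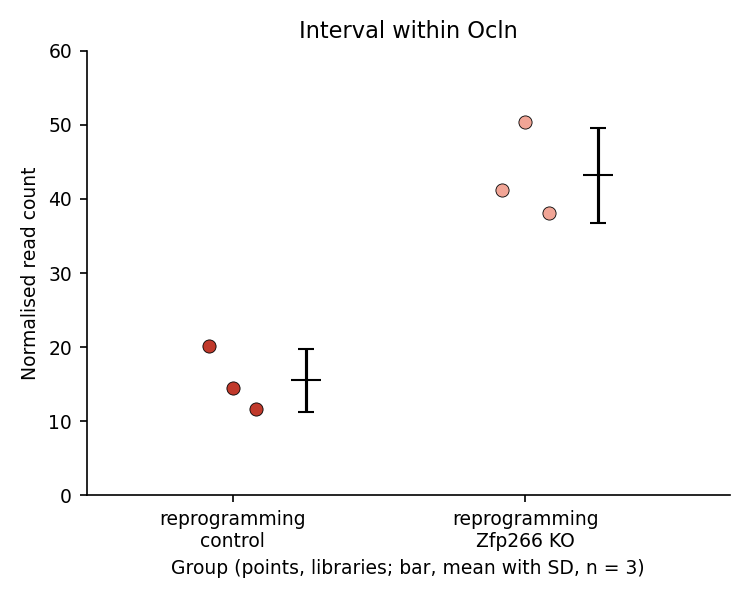
Normalised read count of each reprogramming library at the listed interval within Ocln, with the mean and SD of each group (n = 3). The 3 KO libraries sit between 38.1 and 50.4 and the 3 control libraries between 11.7 and 20.1.

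Promoter sequence was taken from RefSeq (GRCm38.p6) as the 250 bases before the start, and 8 of the 10 genes matched, Cdh1 and Esrp1 being the others. The E-box string was present in 5 of the 8 (17.2% of 32851 RefSeq promoters), namely Epcam, Cldn4, Cldn6, Krt8 and Krt18. The KLF string was present in 7 of the 8 (45.9%), all but Cldn6. The AP-1 string was found in 1, Cldn4 (6.75%), and the OCT and SOX strings in 0 (1.60% and 9.42%). The median GC content was 59.2% in the 8 and 52.4% in all promoters. The Epcam promoter, at chr17:87635729-87635978 on the plus strand, held 2 E-boxes, the most of the 8, and the Ocln promoter, at chr13:100552719-100552968 on the minus strand, held none and 3 KLF matches, 2 of them overlapping. These 2 are shown as an example with E-box matches and an example without. The counts hold for these 250 bases only: the central 300 bases of the start site interval held 1 E-box at Epcam and 4 at Ocln.
Epcam promoter: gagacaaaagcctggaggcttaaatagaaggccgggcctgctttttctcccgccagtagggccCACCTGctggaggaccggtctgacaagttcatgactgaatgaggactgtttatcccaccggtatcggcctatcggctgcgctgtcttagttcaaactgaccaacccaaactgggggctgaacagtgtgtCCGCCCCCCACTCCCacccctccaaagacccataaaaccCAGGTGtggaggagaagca
Ocln promoter: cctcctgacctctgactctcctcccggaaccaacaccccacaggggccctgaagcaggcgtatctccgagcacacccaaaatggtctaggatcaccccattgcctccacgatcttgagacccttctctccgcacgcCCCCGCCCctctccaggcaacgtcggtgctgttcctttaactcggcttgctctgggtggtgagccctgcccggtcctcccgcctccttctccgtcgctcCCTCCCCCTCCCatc

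In the central 300 bases of the 22 gained intervals the KLF string was present in 10 (31.8% of all gained intervals), the E-box in 7 (19.3%), SOX in 5 (25.0%), AP-1 in 5 (15.1%) and OCT in 2 (2.62%). In the 20 lost intervals KLF was present in 7 (18.2% of all lost intervals), the E-box in 2 (10.3%), AP-1 in 2 (31.6%), SOX in 1 (16.8%) and OCT in 0 (1.94%). A match describes the letters and not binding.

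Among 30 other epithelial genes (junction, desmosome, polarity and keratin genes and epithelial regulators), all 30 had a start site peak in every group. Between the controls 3 were at least 1.5 times higher after induction (Marveld2, a tight junction protein, 2.40 to 4.13; Cdh3, P-cadherin, 2.29 to 3.94; Grhl2, an epithelial transcription factor, 3.15 to 5.83), and 6 were lower, Tjp3, Cgn, Crb3, Dsp and Ap1m2 among them. Divided by the genome-wide median ratio, 4 were higher, these 3 among them, and 2 lower, Tjp3 and Ap1m2. The 8 mesenchymal genes, the repressors Snai1, Snai2, Zeb1, Zeb2 and Twist1 among them, had start site peaks in all 4 groups and 0 changed by 1.5 times, before or after that division. Of their 157 intervals 33.1% were lost and 19.1% gained, and of the 625 intervals of the 30 epithelial genes 22.7% were lost and 25.1% gained. Over all intervals 27.5% were lost and 27.4% gained, so the epithelial genes lay below both shares.

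Start site peaks were also read at cell type markers. Of all 21938 protein-coding genes 73.8% had one in MEF control, and 16327 had one in reprogramming control. All 8 fibroblast markers had one in every group. In MEF control 4 of 4 endothelial, 0 of 4 blood, 0 of 4 keratinocyte and 2 of 4 pluripotency markers had one, and in reprogramming control 3, 3, 2 and 3 of 4. With all fibroblast and all endothelial markers positive in MEF control, these peaks cannot tell those cell types apart. They therefore do not check the labelled cell type. The keratinocyte genes gained were Krt14 and Sfn, with Krt5 and Trp63 absent in all groups. The part of other cell types in the gained intervals was not tested. In these bulk samples, more cells with an open site and a more open site per cell cannot be told apart.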

How the data were processed

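Omni-ATAC-seq reads of 12 libraries were processed by the authors, who trimmed with cutadapt, aligned with BWA to GRCm38, filtered out duplicates, mitochondrial and blacklisted reads and pairs not properly aligned, and called peaks with MACS2 (FDR under 0.1), in the files used here as 1 broad list per group of merged replicates. The deposited peak lists give a fold enrichment, a ratio, and a −log10 q-value per peak. The deposited tables give raw read counts per library (Rsubread) and a normalised signal, each count over its library's DESeq2 size factor, for intervals under the adjusted threshold of 0.05 only. Their columns of log2 fold change, standard error, test statistic, p-value and adjusted p-value, written by the authors, were not used, nor was the score column of the deposited BED files.

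The 4 lists (166486, 161687, 170135 and 163315 peaks for MEF control, MEF KO, reprogramming control and reprogramming KO) were merged into 273256 intervals, which matched all 480 MEF and 1608 reprogramming intervals listed, and 0 peaks ran past a chromosome end. An interval's fold was that of its strongest peak in the group. With 1 list per group, a change means a ratio of at least 1.5 and has no test. The depth of the merged lists is unknown. Library totals within listed intervals ran from 33936 to 86490 reads (MEF) and from 141616 to 324141 (reprogramming), which is not the sequencing depth. Listed intervals were tested with edgeR 4.0.16 in R 4.3.3, with size factors recovered from raw over normalised counts (0.630 to 1.46). On simulated reprogramming counts over 1608 intervals, 64 of 100 intervals changed 2-fold and 96 of 100 changed 3-fold were recovered with 0 false calls. The simulation used the same assumed dispersion for every interval, not one estimated from these libraries. Its adjustment counted 273256 tests for 1608 simulated intervals, which by itself keeps false calls few. The recovery need not hold at low counts such as those of the Ocln interval. The mean of the other context came from the mean of all 12 libraries by subtraction. Starts are counted from 1.

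The 10 genes, the other gene lists, the motifs and the tests were chosen with earlier results of these data known. Named in the text were each gene's start site interval, its strongest gained and lost intervals, its ratio between controls farthest from 1 and every listed interval, and of the other lists those whose start site changed. Some items that this rule names are not reported here. Alternatives covered window sizes, peak thresholds, overlap, scaling, the count test (DESeq2 1.42.0, limma 3.58.1) and leaving out each library.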

Additional observations from a re-analysis of the deposited data

How the results depend on the processing

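Peak presence rests on 1 merged list per group, so the limits are thresholds and windows. Of 57 alternative values, 40 stayed within their limits, 15 moved and 2 lost the call. With windows of 50000 bp the gained intervals numbered 50, the lost 29 and those in all 4 groups 81; with 10000 bp the latter were 29. With peaks of fold 3 or more there were 9 gained, 22 lost and 16 in all 4 groups, so the balance of gained to lost (22 to 20) turned. Requiring a peak to cover 50% of an interval, an alternative chosen after the data were seen, left 25 in all 4 groups, 33 gained and 21 lost. Leaving out intervals over or near another gene's start site was also added then. The gained start site count was 0 with 2000 bp or 500 bp and 2 at a −log10 q of at least 5. Between controls, 5 intervals were higher and 6 lower after division by the median ratio, and 0 higher and 4 lower at a ratio of 2. Within 50000 bp there were 1 MEF and 4 reprogramming listed intervals.

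At the Ocln interval the log2 difference was 0.50 with TMM over the listed intervals, which centres a list that moves mostly one way, and 1.35 without scaling, and the call was lost in both. Its adjusted p ran from 7.89e-06 to 1.00 over the alternatives (edgeR, DESeq2 or limma). Leaving out 1 library gave 1.34 to 1.69. With the replicate block it was 1.47 and the calls stayed at 478 (MEF) and 1608 (reprogramming). Same-numbered libraries correlated at 0.04 to 0.21 in MEFs, where 5 of 6 libraries correlated best with their own number, and at 0.04 to 0.10 in reprogramming, where 6 of 6 did, so the numbers were not taken as pairs. No MEF interval was listed within 20000 bp, so the MEF alternatives of that test gave no value.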

Other observations

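Past the edge of the loci, within 50000 bp of the genes, further intervals were listed, of which 3 are given here, each nearest to the start site of another gene. All 3 had higher mean counts in KO, on lists selected for a difference between these same libraries. Most regions that the paper reports as changed were also more open in KO. In MEFs the interval 30901 bp from Cdh1, nearest to Tango6, had 163 ± 7.01 normalised counts in control and 237 ± 6.96 in KO (SD, n = 3). In reprogramming the interval 35892 bp from Cldn7, nearest to Eif5a, had 29.7 ± 2.32 and 99.3 ± 17.1 (SD, n = 3).

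At the Cdh1 and Cldn7 intervals the peak fold was also higher in KO, 5.59 in control and 6.27 in KO at the first, and 3.52 in KO with no peak in control at the second. The interval 33359 bp from Krt18, nearest to Eif4b, singled out after its values were seen, showed counts and peak fold in opposite directions. Its normalised counts were 255, 223 and 226 in the reprogramming control libraries and 406, 431 and 419 in the KO libraries, while its peak fold was 4.44 in control and 3.90 in KO. The log2 difference in counts was 0.83 with an SE of 0.08 (edgeR adjusted p = 1.01e-17). The counts cover the merged interval of 1527 bp, and the fold is that of the strongest called peak, so a ratio of peak folds near 1 does not show equal counts.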
